A study of Mus musculus with 12 samples.

Results

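The genes described here carry phosphate across kidney cell membranes, hold the carriers in place, or receive the parathyroid hormone signal that removes them. They were taken from a written list of 9 symbols, chosen with earlier results of these data known. All 9 were measured among the 19938 genes of the array table, each by 1 probe set. They are the type II sodium-phosphate cotransporter genes Slc34a1, Slc34a2 and Slc34a3, the type III genes Slc20a1 and Slc20a2, the phosphate exporter gene Xpr1, the PDZ scaffold genes Slc9a3r1 and Pdzk1, and the receptor gene Pth1r.

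Total kidney RNA of female mice was hybridised to 12 Affymetrix whole-transcript arrays, 4 for each of 3 groups. The first group was wild type, labelled C57BL/6, given 500 ng recombinant FGF23 per g body weight into the peritoneum. The second was KL null, labelled 129/SvEv/C57BL/6, given 100 µl saline vehicle by the same route. The third was wild type, labelled C57BL/6, given the same vehicle, and it is the comparison group for both others. All mice were killed 1 hour after the injection, following 5 to 8 weeks on standard diet. Genotype and strain label go together and cannot be told apart here, although the protocol describes the wild-type mice as littermates. The labels name neither the Kl allele nor whether each array is 1 mouse, so the p-values rest on the spread among these arrays, which may be technical.

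In the proximal tubule, NaPi-IIa (Slc34a1) and NaPi-IIc (Slc34a3) take filtered phosphate from the urine across the brush border. NHERF1 (Slc9a3r1) and PDZK1 hold NaPi-IIa there by binding its tail with PDZ domains. Parathyroid hormone, acting through its receptor PTH1R, and FGF23, acting through FGF receptors with klotho, both lower the amount of these carriers in the brush border, and much of that control is known to act on the protein through phosphorylation of NHERF1 and internalisation of the carrier. XPR1 is the exporter through which cells release phosphate.

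Values are log2 RMA signals, in which a difference of 1 is a doubling. Levels of different probe sets are not comparable with each other, so each gene is compared only with itself. Sums over a marker list are likewise compared only between arrays. Differences come from limma, 1 fit over all arrays, and genes with a Benjamini-Hochberg adjusted p (over the 19938 genes) under 0.05 were called. Kl itself fell in KL null, at 9.66, 9.76, 9.66 and 9.80 in KL null against 10.67, 10.45, 10.74 and 10.58 in wild-type vehicle (log2 difference -0.89, adjusted p from limma 1.75e-05). The exons under the Kl probe set are unknown, and the signal that remains is no measure of full-length transcript. The tissue label was borne out by strong signals of Umod of the thick ascending limb (group means 12.66, 12.79 and 12.72 in FGF23, KL null and vehicle arrays) and of Slc5a2 of the early proximal tubule (11.37, 11.38 and 11.52). The standard deviation of all values on an array ran from 2.17 to 2.28, and was lowest in WT FGF23 replicates 1 and 2 (both 2.17) and KL null replicate 1 (2.19).

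**Figure D1:**
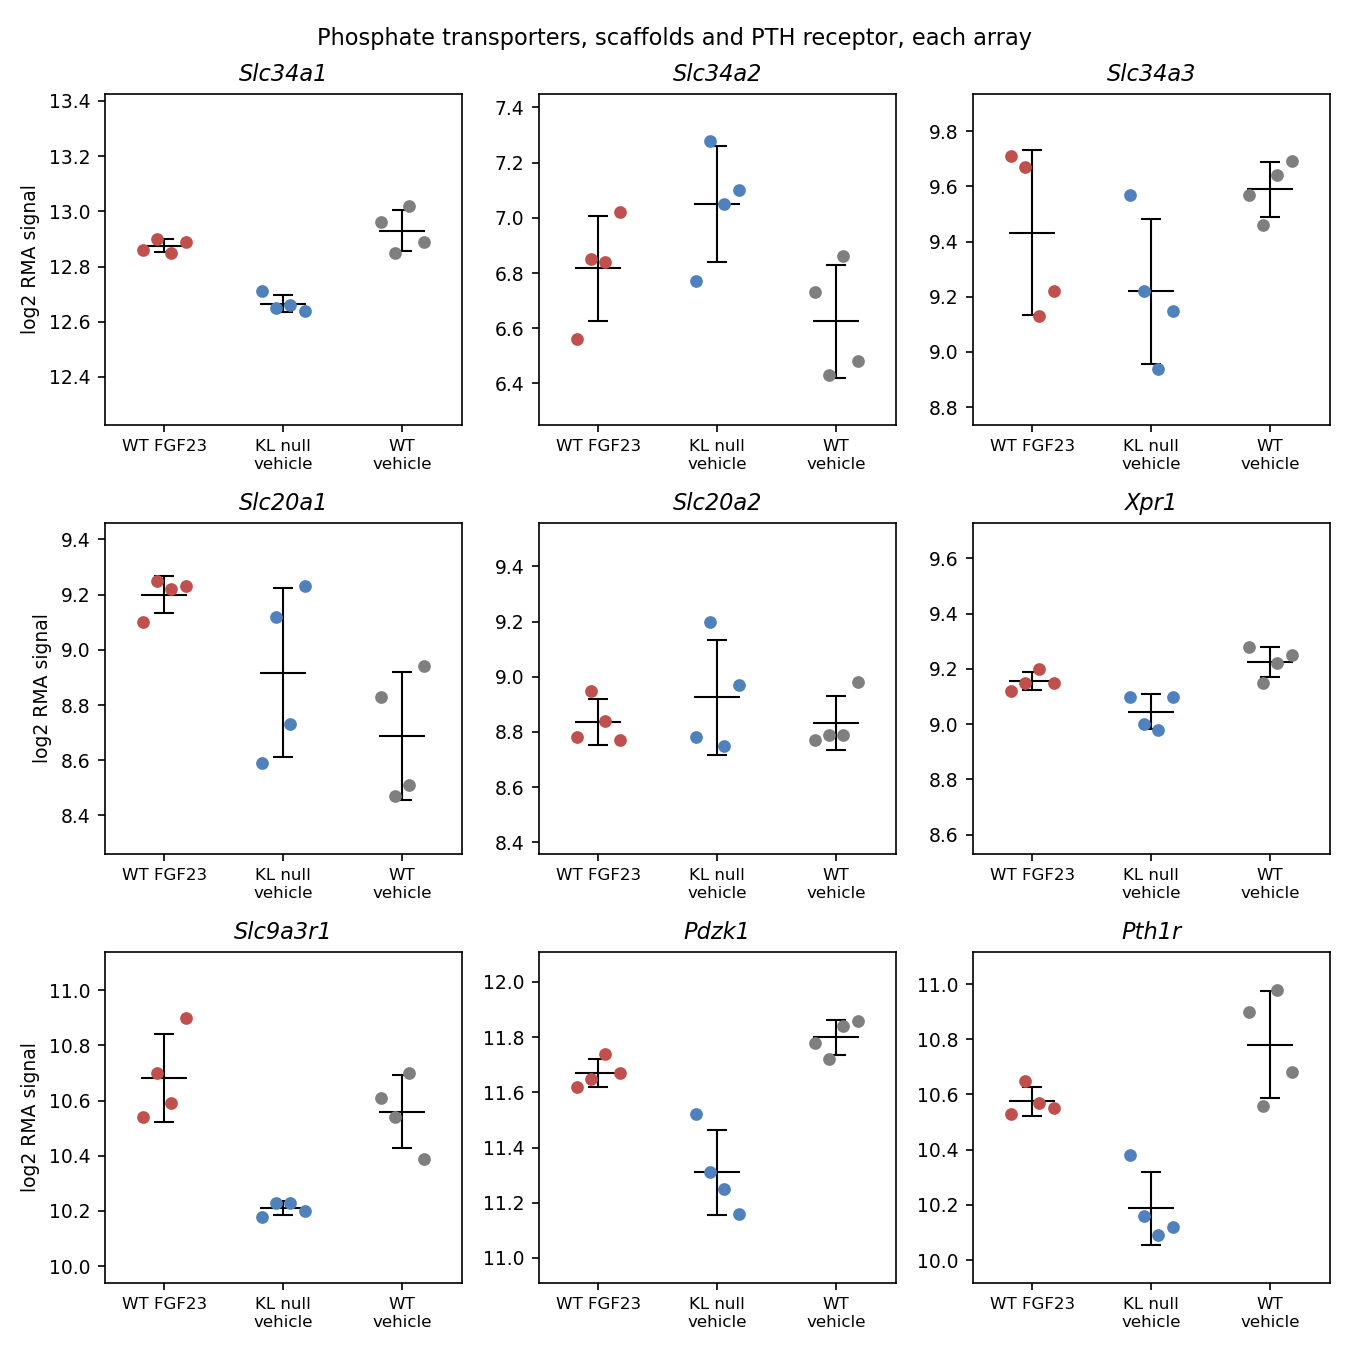
Log2 RMA signal (vertical axes, each spanning 1.2 units) of the 9 genes on every array, with 4 arrays each for wild type with FGF23, KL null with vehicle and wild type with vehicle, replicates 1 to 4 from left to right. Horizontal marks are group means and bars are standard deviations, and the KL null arrays lie below all wild-type vehicle arrays for Slc34a1, Xpr1, Slc9a3r1, Pdzk1 and Pth1r.

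The comparison of KL null with wild-type vehicle kidneys describes how phosphate transport genes differ between these groups. The groups differ in strain label as well as in genotype. Of the 9 genes 4 fell in KL null kidneys, Pth1r, Pdzk1, Slc9a3r1 and Slc34a1, by 1.20-fold to 1.51-fold, and 0 rose. Among all genes 8.01% were called in this comparison (3.58% higher and 4.44% lower). All 9 genes lie above the median level. When only the 9968 genes above it were fitted, 18.7% were called (693 genes higher and 1168 lower). In that fit 5 of the 9 passed, Slc34a2 being the addition. An unadjusted p below 0.05 was reached by 7 of the 9, against 21.3% of all genes, a share that includes the dim genes. The 9 genes had a median log2 difference of -0.27, against 0.03 over all genes. In 5 of the 9 the groups did not overlap, all lower in KL null, against 13.8% of all genes (6.35% higher and 7.44% lower), dim genes again included. In whole-kidney RNA, fewer cells of a type and less RNA per cell cannot be told apart.

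Slc34a1, which encodes the main phosphate carrier of the proximal brush border, was at 12.71, 12.65, 12.66 and 12.64 in KL null, against 12.96, 12.85, 13.02 and 12.89 in wild-type vehicle. Every KL null array was below every vehicle array, and the KL null arrays spanned only 0.07. The log2 difference was -0.27 (SE 0.070, 95% interval -0.41 to -0.12), a 1.20-fold decrease (adjusted p = 0.0305). After a further quantile normalization of the table the difference was -0.05 and did not pass (adjusted p = 0.74). The mean of Slc34a1 was above that of 99.96% of genes. Quantile normalization gives equal ranks equal values on every array, and the arrays also differed in spread. Why the difference of Slc34a1 shrank was not tested. The call was also lost when the 2 groups were fitted alone (adjusted p = 0.0572), with the replicate number as a block (adjusted p = 0.0535), without WT vehicle replicate 1 or 3 and without KL null replicate 2, 3 or 4, with log2 differences of -0.24 to -0.29 over the 12 fits that leave out 1 array and a highest adjusted p of 0.102.

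Slc34a3, the second renal carrier of this family, was at 9.57, 9.22, 8.94 and 9.15 in KL null and at 9.57, 9.46, 9.64 and 9.69 in wild-type vehicle. KL null replicate 1 lay within the vehicle range, and the other 3 KL null arrays lay below it. The log2 difference of -0.37 (SE 0.145, 95% interval -0.68 to -0.06) did not pass (adjusted p = 0.144), although it did without KL null replicate 1 (-0.49, adjusted p = 0.0444). That array had the lowest spread of the KL null arrays, and when spread entered the fit the difference was -0.48 (adjusted p = 0.0124).

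Slc34a2 encodes NaPi-IIb, the family member best known from intestine and lung. It was at 6.77, 7.28, 7.05 and 7.10 in KL null and at 6.73, 6.43, 6.86 and 6.48 in wild-type vehicle. It thus leaned the other way from its relatives, with 3 of 4 KL null arrays above all vehicle arrays. The log2 difference was 0.43 (SE 0.128, 95% interval 0.15 to 0.70), just short of the threshold (adjusted p = 0.0551). It passed in 8 of 22 alternative settings, among them without KL null replicate 1 (0.52, adjusted p = 0.02), without WT vehicle replicate 3 (0.50, adjusted p = 0.0497) and without WT FGF23 replicate 1, which adds only to the estimate of spread (adjusted p = 0.0439). This probe set was dim, near the median of 6.57 over all genes.

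The type III carriers serve cells throughout the body, and PiT-2 (Slc20a2) is also found in the proximal brush border. Slc20a1 was at 8.59, 9.12, 8.73 and 9.23 in KL null and at 8.83, 8.47, 8.51 and 8.94 in wild-type vehicle (log2 difference 0.23, 95% interval -0.07 to 0.53, adjusted p = 0.384). Slc20a2 was at 8.78, 9.20, 8.75 and 8.97 in KL null and at 8.77, 8.79, 8.79 and 8.98 in wild-type vehicle (log2 difference 0.09, 95% interval -0.12 to 0.31, adjusted p = 0.681). In both genes KL null replicates 2 and 4 were the higher pair and replicates 1 and 3 the lower pair, and the groups overlapped. The 95% intervals reach an increase of 0.53 for Slc20a1 and of 0.31 for Slc20a2 on the log2 scale.

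Xpr1 was at 9.10, 9.0, 8.98 and 9.10 in KL null and at 9.28, 9.15, 9.22 and 9.25 in wild-type vehicle. The groups did not overlap, but the gap between them was 0.05 and the difference did not pass (log2 difference -0.18, SE 0.071, 95% interval -0.33 to -0.03, adjusted p = 0.146). It passed in 0 of 22 alternative settings by limma, with adjusted p from 0.05 to 0.325 (unadjusted p = 0.0226 in the fit of all arrays).

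Both scaffold genes fell. Pdzk1, whose protein has several PDZ domains and binds the tail of NaPi-IIa, was at 11.52, 11.31, 11.25 and 11.16 in KL null, against 11.78, 11.72, 11.84 and 11.86 in wild-type vehicle. The groups were apart by 0.20 at their nearest arrays, and KL null replicate 1 was the nearest. The log2 difference was -0.49 (SE 0.085, 95% interval -0.67 to -0.31), 1.40-fold lower (adjusted p = 0.00268). Slc9a3r1 was at 10.18, 10.23, 10.23 and 10.20 in KL null, against 10.61, 10.54, 10.70 and 10.39 in wild-type vehicle. The KL null arrays were nearly equal, with an SD of 0.024 against 0.131 in vehicle arrays, and all lay below the vehicle range. The difference of -0.35 (SE 0.092) was 1.27-fold (adjusted p = 0.0301). This call did not hold without WT vehicle replicate 1, 2 or 3 or without any 1 of the 4 KL null arrays (highest adjusted p = 0.105, log2 differences -0.30 to -0.41), nor after quantile normalization (-0.25, adjusted p = 0.0972) or with the replicate number as a block (adjusted p = 0.0509).

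Pth1r had the largest decrease of the 9 genes. It was at 10.38, 10.16, 10.09 and 10.12 in KL null, against 10.90, 10.56, 10.98 and 10.68 in wild-type vehicle. All KL null arrays were below all vehicle arrays, by 0.18 at the nearest. The log2 difference was -0.59 (SE 0.10, 95% interval -0.81 to -0.38), 1.51-fold lower (adjusted p = 0.00219). Pth1r and Pdzk1 passed in all 22 alternative settings, with adjusted p of at most 0.0109 and 0.0127.

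**Figure D2:**
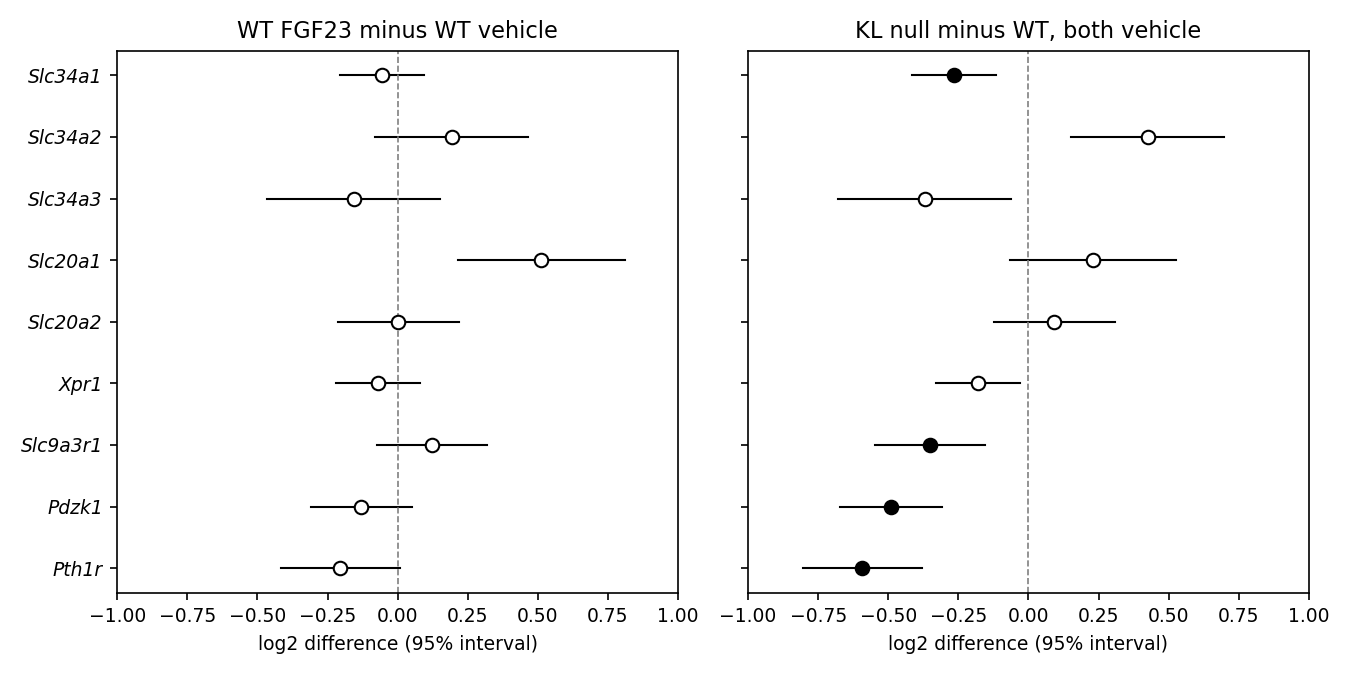
Log2 differences of the 9 genes with 95% intervals from limma (horizontal axis), for wild type with FGF23 minus wild type with vehicle on the left and KL null minus wild type, both with vehicle, on the right. Filled circles passed the test after adjustment over all genes: 0 on the left, and Slc34a1, Slc9a3r1, Pdzk1 and Pth1r on the right.

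RefSeq (GRCm38.p6) gives promoters, 250 bases before to 50 after a start site, for 8 of the 9 genes. Those of the 4 genes called lower in KL null are shown, for Pdzk1 the first of its 2 start sites and for Pth1r the most upstream of its 3. Letters run 5′ to 3′ along the gene's strand, and capitals mark a TATA box (TATAAA), an HNF1-type hexamer (GTTAAT), an HNF4-type element (CAAAGTCCA), a GC box (GGGCGG) or a nuclear receptor hexamer (AGGTCA), each on either strand.
Slc34a1, chr13:55399398-55399697, plus strand: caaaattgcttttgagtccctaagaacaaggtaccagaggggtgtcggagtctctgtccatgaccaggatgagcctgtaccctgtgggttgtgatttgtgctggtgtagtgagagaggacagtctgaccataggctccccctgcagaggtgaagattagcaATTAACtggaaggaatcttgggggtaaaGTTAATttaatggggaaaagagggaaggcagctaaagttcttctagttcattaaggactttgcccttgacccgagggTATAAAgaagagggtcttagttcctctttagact
Slc9a3r1, chr11:115163091-115163390, plus strand: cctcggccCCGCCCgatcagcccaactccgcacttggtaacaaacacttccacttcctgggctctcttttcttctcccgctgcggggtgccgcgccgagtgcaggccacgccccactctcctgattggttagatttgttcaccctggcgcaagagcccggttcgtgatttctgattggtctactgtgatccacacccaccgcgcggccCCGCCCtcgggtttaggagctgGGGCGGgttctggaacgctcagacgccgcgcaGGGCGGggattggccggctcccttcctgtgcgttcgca
Pdzk1, chr3:96829815-96830114, plus strand: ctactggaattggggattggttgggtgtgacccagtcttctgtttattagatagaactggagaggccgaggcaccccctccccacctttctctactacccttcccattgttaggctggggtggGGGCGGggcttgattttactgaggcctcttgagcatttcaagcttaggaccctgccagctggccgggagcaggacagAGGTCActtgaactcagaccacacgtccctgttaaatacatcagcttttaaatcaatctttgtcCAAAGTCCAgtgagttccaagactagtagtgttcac
Pth1r, chr9:110747096-110747395, minus strand: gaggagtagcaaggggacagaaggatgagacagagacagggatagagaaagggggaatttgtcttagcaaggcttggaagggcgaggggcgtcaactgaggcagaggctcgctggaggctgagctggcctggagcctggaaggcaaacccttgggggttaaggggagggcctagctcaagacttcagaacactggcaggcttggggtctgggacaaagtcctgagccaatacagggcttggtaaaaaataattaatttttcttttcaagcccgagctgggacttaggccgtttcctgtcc
In the Slc34a1 promoter, the HNF1-type hexamer occurs on opposite strands, starting at -89 and -61 from the start site, and a TATA box starts at base 17 after it. That hexamer occurs in 7.1% of the 32851 promoters listed and that TATA box in 13.6%. The Pdzk1 promoter has the HNF4-type element, present in 0.475% of promoters, beside a GC box and a nuclear receptor hexamer, which 35.7% and 16.3% of promoters hold. Slc9a3r1 has 4 GC boxes and a GC content of 64.3%, against 46.7% for Slc34a1 and 51% for Pdzk1 and a median of 52.7% over the table. The Pth1r sequence shown, with a GC content of 54.3%, holds 0 of these motifs. The other Pth1r start sites have promoters of 69.3% and 68% GC with 4 GC boxes and 1 GC box, and the second Pdzk1 promoter (50.7% GC) holds 0 of the motifs. No 2 marked motifs overlap in these sequences, and the array does not tell which start site was used. The cyclic AMP element TGACGTCA (1.79% of promoters) and the E-box CACGTG (7.15%) were also searched and occur in 0 of these 4 sequences. A match of letters describes the sequence and is no evidence of a bound factor.

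By their profile over the 12 arrays, the genes nearest to each of the 4 were not other phosphate genes. Likeness was measured as the root-mean-square distance between log2 values centred on each gene's mean. Nearest to Pth1r were Unkl and Pomgnt1 (both 0.070) and Chid1 (0.073), and nearest to Pdzk1 were the flavin monooxygenase gene Fmo1 (0.058), the haem synthesis gene Uros (0.066) and Lrrk2 (0.066). Nearest to Slc9a3r1 were AU040320 (0.059), Hipk2 (0.061) and Sh3d19 (0.063), and nearest to Slc34a1 were Mapkap1 (0.034), Glyr1 and Agpat3 (both 0.041). Mapkap1 and Glyr1 were not called in KL null (adjusted p from limma 0.0839 and 0.104). Among the 4 genes themselves, Pdzk1 and Pth1r were the closest pair (0.107), and Slc9a3r1 and Pth1r the farthest (0.190).

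The neighbouring machinery was described with 4 lists of pathway genes. Beside their counts and those of the marker lists, 8.01% of all genes were called in KL null. That share was 18.7% when only genes above the median level were fitted. Of 18 measured genes of the brush border PDZ network 8 fell, 1 rose and 9 did not pass in KL null, with a median log2 difference of -0.29 against 0.03 over all genes. Lrp2, which encodes the endocytic receptor megalin, fell to 12.22 ± 0.02 in KL null, against 12.72 ± 0.09 in wild-type vehicle (SD, n = 4 each, adjusted p from limma 0.00175). The actin bundler gene Espn fell by 0.48 (adjusted p = 0.00517) and the PDZ scaffold gene Pdzd3 by 0.52 on the log2 scale (adjusted p = 0.0105). Moesin (Msn), a membrane-actin linker of many cell types, was the gene that rose, by 0.47 (adjusted p = 0.00792). The other decreases, named after their values were seen, were in Vil1, Cdhr2, Cdhr5, Cubn and Shank2. Slc9a3r2, the gene of the NHERF2 scaffold, was at 7.97 ± 0.16 in KL null and 8.07 ± 0.17 in vehicle arrays (adjusted p = 0.652), and Ezr, whose protein ezrin ties NHERF1 to actin, at 10.38 ± 0.10 and 10.65 ± 0.19 (adjusted p = 0.117), both genes named after their values were seen. The list's count was 4 without WT vehicle replicate 3 and 4 without KL null replicate 3.

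Among 14 measured genes of other phosphate carriers and inositol pyrophosphate kinases, 2 fell, 0 rose and 12 did not pass in KL null (median 0.07). Both belong to the Slc17 family, whose first member was found as a sodium-phosphate cotransporter and whose renal members are known as organic anion and urate carriers. Slc17a2 fell to 5.19 ± 0.11 in KL null, against 7.89 ± 0.25 in wild-type vehicle, a log2 difference of -2.70 (adjusted p = 1.21e-05). Slc17a3 fell to 10.20 ± 0.38 in KL null, against 11.70 ± 0.12 in wild-type vehicle, a log2 difference of -1.49 (adjusted p = 5.4e-05). Their relative Slc17a1, named after its value was seen, was at 11.76 ± 0.04 in KL null and 11.64 ± 0.19 in vehicle arrays (adjusted p = 0.545). The kinases Ip6k1, Ip6k2, Ppip5k1 and Ppip5k2, which make the inositol pyrophosphates that activate XPR1, did not pass (log2 differences 0.04, 0.15, 0.10 and -0.07), and these 4 genes too were named after their values were seen.

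In the PTH signalling list, 2 of 18 measured genes fell, 0 rose and 16 did not pass (median -0.15). That count is not far from the 8.01% called over all genes. The decreases were in Plcb1 (-0.60, adjusted p = 0.00325) and Prkca (-0.54, adjusted p = 0.00153), which encode a phospholipase C and a protein kinase C. Gnas, Prkaca, Grk2 and Pthlh had no probe set of their own, and the measured genes include Pth2r, the gene of another receptor. This list had 5 called genes with array quality weights. In the list of FGF23 receptors, klotho and vitamin D receptor, 3 of 15 genes fell, 1 rose and 11 did not pass. Apart from Kl, the decreases were in the vitamin D receptor gene Vdr (-0.64, adjusted p = 0.000921) and in Fgf1 (-1.26, adjusted p = 0.00122), and the increase in Stc2, the gene of stanniocalcin-2 (0.68, adjusted p = 0.000857).

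**Figure D3:**
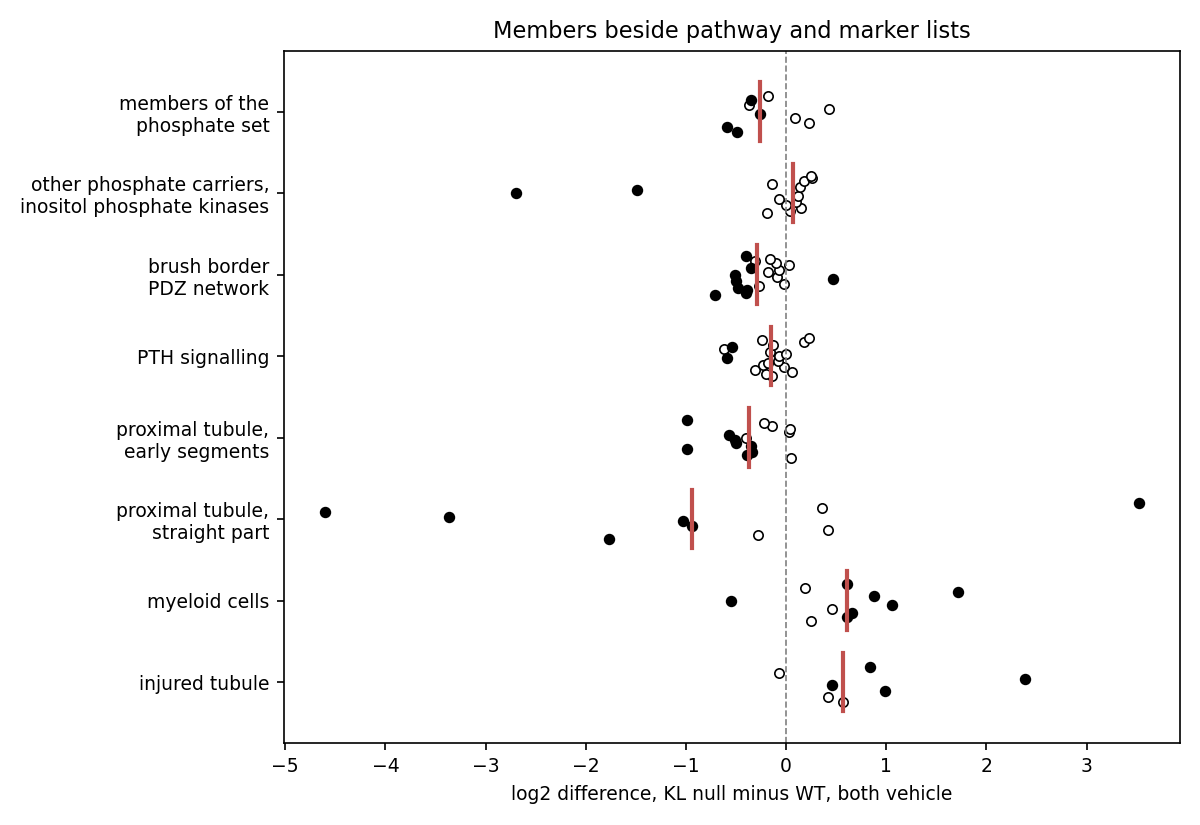
Log2 difference of KL null minus wild type, both with vehicle (horizontal axis), for each of the 9 phosphate genes and each measured gene of 3 pathway and 4 marker lists (rows). Filled circles passed the test over all genes, red lines are medians, and the medians of the 9 genes (-0.27) and of the early proximal tubule markers (-0.37) both lie below 0.

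Markers of the proximal tubule, the segment that carries these phosphate carriers, fell more often than they rose. Of 14 markers of the early proximal tubule 8 fell, 0 rose and 6 did not pass in KL null, with a median of -0.37. Lrp2 and Cubn are in this list and in the brush border network, and their decreases count in both. The summed linear signal of the 14 markers was 41675 to 45967 in KL null, against 52406 to 58059 in wild-type vehicle. Such a sum is weighted to the brightest probe sets and is no measure of how many cells there are. The list was uneven, as genes named after their values were seen show: Gatm fell by 0.99 (adjusted p = 3.55e-05) and Slc22a8 by 0.57 (adjusted p = 0.0016). Slc5a12, Slc4a4 and Aqp1 had log2 differences of 0.04, 0.025 and 0.05 and did not pass. Of the 14 differences 3 were positive and 11 negative. The defining marker Slc5a2 was at 11.38 in KL null and 11.52 in vehicle arrays (adjusted p = 0.525). Of 9 markers of the straight part of the proximal tubule 5 fell, 1 rose and 3 did not pass, with sums of 7405 to 9164 in KL null and 16132 to 16763 in wild-type vehicle. Its defining marker Slc22a7, an organic anion carrier gene, averaged 5.69 in KL null and 10.29 in wild-type vehicle. The gene that rose, Slc7a13, an amino acid carrier gene named after its values were seen, averaged 9.31 ± 1.39 in KL null and 5.79 ± 0.19 in wild-type vehicle (log2 difference 3.52, adjusted p from limma 0.000506). In that list 3 differences were positive and 6 negative. Its brightest genes in vehicle arrays, Aadat and Slc22a19, weigh most in the sums and had log2 differences of -1.77 and -3.365. The other positive differences, in Slc5a8 (0.355) and Agt (0.42), did not pass. These genes too were named after their values were seen. Of 10 myeloid markers 6 rose and 1 fell (sums 1496 to 2698 in KL null and 1272 to 1706 in wild-type vehicle), and of 7 injured tubule markers 4 rose and 0 fell (sums 2039 to 3252 and 1357 to 2574). The defining markers Ptprc and Havcr1 did not pass (log2 differences 0.19 and 0.57). The part of these shifts in the results for the 9 genes was not tested.

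The other marker lists held fewer called genes. Loop and distal tubule markers had 2 increases and 1 decrease among 9, podocyte markers 1 decrease among 5, fibroblast markers 1 increase among 7 and adrenal markers 1 increase among 9. In collecting duct (9 genes), endothelial (8), lymphocyte (6), adipocyte (6) and erythroid (2) markers limma called 0 genes in KL null, with 2, 5, 1, 1 and 1 genes at an unadjusted p below 0.05. All 5 podocyte differences and all 8 endothelial differences were nonetheless negative, with medians of -0.27 and -0.22, beside the median of -0.27 of the 9 phosphate genes. Slc4a1 is in both the collecting duct and the erythroid list and counts in each. RMA gives every probe set a positive value, so no marker can be called absent.

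FGF23 against vehicle in wild type asks whether these transcripts respond within 1 hour. By limma 0 of the 9 genes passed, and 1 had an unadjusted p below 0.05, against 0.0853% of all genes called (0.0802% higher and 0.00502% lower) and 15.4% with such an unadjusted p. The median log2 difference of the 9 genes was -0.06, against 0.04 over all genes. This comparison uses the same vehicle arrays as the one with KL null.

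The gene with the low unadjusted p was Slc20a1, which encodes the ubiquitous carrier PiT-1. It was at 9.10, 9.25, 9.22 and 9.23 after FGF23, against 8.83, 8.47, 8.51 and 8.94 with vehicle. All FGF23 arrays were above all vehicle arrays, while groups lay apart in 7.01% of all genes (4.09% higher and 2.92% lower). The log2 difference was 0.51 (SE 0.139, 95% interval 0.22 to 0.81), 1.43-fold, which did not pass (unadjusted p = 0.00225, adjusted p = 0.241). Over 22 alternative settings it lay between 0.44 and 0.66 and passed in 0, with adjusted p of 0.118 or more. The KL null arrays of Slc20a1, at 8.59 to 9.23, reached from within the vehicle range into the FGF23 range.

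The carriers of the brush border showed no call. Slc34a1 was at 12.86, 12.90, 12.85 and 12.89 after FGF23, within the vehicle range of 12.85 to 13.02. Its 95% interval, -0.20 to 0.09 on the log2 scale, reaches a decrease of 0.20. That interval rests on the spread among these arrays, and differences of so bright a probe set may be compressed. Slc34a3 was at 9.71, 9.67, 9.13 and 9.22 after FGF23, against 9.57, 9.46, 9.64 and 9.69 with vehicle. Replicates 3 and 4 lay below every vehicle array, and replicates 1 and 2, the arrays of lowest spread, lay within the vehicle range or just above it. When spread entered the fit the log2 difference was -0.44 (adjusted p = 0.747), against -0.16 without it (95% interval -0.47 to 0.15).

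Slc34a2 was at 6.56 to 7.02 after FGF23 and 6.43 to 6.86 with vehicle (95% interval -0.08 to 0.47), and Slc20a2 at 8.77 to 8.95 and 8.77 to 8.98 (-0.21 to 0.22). Xpr1 was at 9.12 to 9.20 after FGF23 and 9.15 to 9.28 with vehicle (-0.22 to 0.08). In these 3 genes the groups overlapped.

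Pth1r was at 10.53, 10.65, 10.57 and 10.55 after FGF23 and at 10.90, 10.56, 10.98 and 10.68 with vehicle. The FGF23 arrays lay at or just below the low end of the vehicle range (log2 difference -0.21, 95% interval -0.42 to 0.01, adjusted p = 0.337). Pdzk1 was at 11.62, 11.65, 11.74 and 11.67 after FGF23 and 11.78, 11.72, 11.84 and 11.86 with vehicle (log2 difference -0.13, 95% interval -0.31 to 0.05, adjusted p = 0.452). The 2 groups of Pdzk1 overlapped by 0.02. Slc9a3r1 was at 10.54 to 10.90 after FGF23 and 10.39 to 10.70 with vehicle (0.12, 95% interval -0.07 to 0.32, adjusted p = 0.511).

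The order of the group means placed KL null lowest for Slc34a1, Slc34a3, Xpr1, Slc9a3r1, Pdzk1 and Pth1r and highest for Slc34a2 and Slc20a2, while FGF23 was highest for Slc20a1. The only means in these orders that differed by the test were those of KL null and vehicle for the 4 called genes, and KL null was not tested against FGF23.

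In all 4 pathway lists limma called 0 genes after FGF23, with 3, 2, 1 and 0 genes at an unadjusted p below 0.05 among the other phosphate carriers, the brush border network, PTH signalling and the FGF23 receptor list. The smallest p-values belonged to Slc37a1 (log2 difference 0.34, adjusted p = 0.264) and Ppip5k2 (-0.23, 0.312) of the carriers and kinases, and to Slc9a3, the sodium-proton exchanger NHE3 (0.23, 0.272), and Slc9a3r2 (0.24, 0.305) of the brush border. They belonged to Prkar2b (-0.50, 0.291) and Pde4d (0.18, 0.41) of PTH signalling, and to Fgf1 (-0.36, 0.384) and Fgfr2 (-0.15, 0.39) of the receptor list. Median log2 differences of the lists were -0.02, -0.02, 0.01 and 0.04 in the same order, against 0.04 over all genes. By limma 0 genes of the 13 marker lists were called after FGF23, with 0 to 3 genes of a list at an unadjusted p below 0.05. The early proximal tubule markers had a median of -0.15, with 12 of 14 differences negative and sums of 50079 to 52212 after FGF23 against 52406 to 58059 with vehicle. The part of this shift in the values of the 9 genes after FGF23 was not tested.

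**Figure D4:**
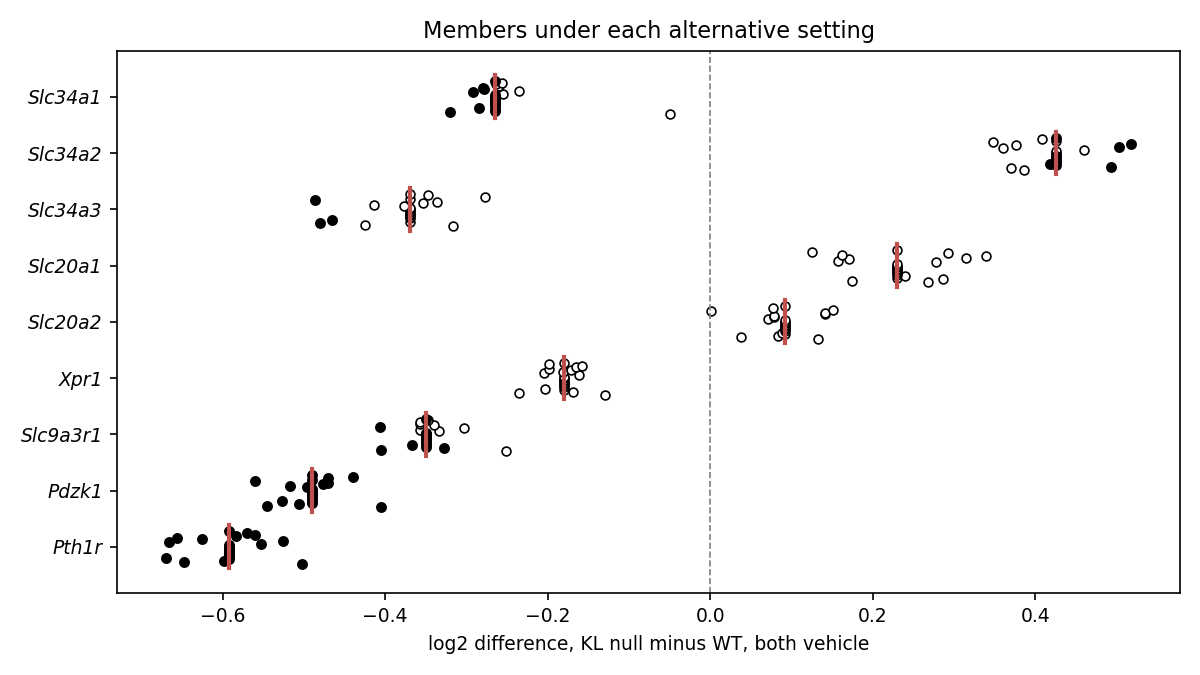
Log2 difference of KL null minus wild type, both with vehicle (horizontal axis), for the 9 genes under 22 alternative settings each. Filled circles passed the test in that setting, open circles did not, and the red line is the value of the fit over all 12 arrays, so that Pdzk1 and Pth1r are filled throughout while the isolated open circle of Slc34a1 at -0.05 is the quantile-normalized table.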

How the data were processed

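Kidney RNA on 12 arrays, 4 per group, was analysed from 1 table. Its values are log2 signals per probe set, deposited by the authors with 2 decimals and and the submitters' processing notes name RMA and Partek 6.2 as tools. Background and probe-level settings are not given in the sources used here, and the arrays differ in spread. RMA compresses differences of dim and very bright probe sets. Of 28853 probe sets, 21789 had 1 gene symbol in the platform annotation, 1621 several and 5443 none. The highest-mean probe set stood for each of 19938 genes. Precision is limited by how many arrays there are.

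The two-sided test of each log2 difference was limma's (version 3.58.1, R version 4.3.3), by lmFit on 3 group means with 9 residual degrees of freedom and then eBayes. The code was first tested on simulated data. Adjusted p-values are Benjamini-Hochberg over all genes. Figures were drawn with matplotlib 3.10.9 from tables made with pandas 2.3.3 under Python 3.11.15. The members and the 4 pathway and 13 marker lists were chosen with earlier results of these data known. Of 73 pathway entries those with no probe set of their own were left out. Named are all 9 members, Kl, and per list up to 4 called genes of smallest p, or 2 where 0 were called. For each called member the 3 nearest profiles are named, leaving out microRNA, Snor, Olfr, Igh, Igk, LOC and RIKEN entries and predicted genes. Alternatives covered normalization, array spread, moderation, array weights, the groups fitted, a filter on dim genes, probe set averaging, the replicate number and left-out arrays.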

Additional observations from a re-analysis of the deposited data

Results flagged for a closer look

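WT vehicle replicate 4 stood apart for Slc20a2, at 8.98 against 8.77, 8.79 and 8.79 in the other vehicle arrays, where 27 groups of 4 arrays were examined and chance flags about 1 group in 20. Without it the log2 difference of Slc20a2 was 0.14 in KL null over wild type and 0.05 in FGF23 over vehicle, and neither passed the test. The cause was not tested.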

How the results depend on the processing

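With KL null over wild type, 4 of the 9 genes were called, and 2 after further quantile normalization and 2 with the replicate block. Leaving out 1 array at a time gave 2 to 5. Pdzk1 and Pth1r were called in all 22 alternatives, Slc34a1 in 14, Slc9a3r1 in 13, Slc34a2 in 8, Slc34a3 in 3 and Xpr1, Slc20a1 and Slc20a2 in 0. With FGF23, 0 genes were called in any of 22. The sign of Slc34a1 after FGF23 turned with quantile normalization (0.0079). That of Slc20a2 turned with arrays centred on their medians (-0.0475), with array spread in the fit (-0.0218) and without the 2 FGF23 arrays of lowest spread (-0.0275), and with 1 array left out it ran from -0.0358 to 0.0517. The cause of these changes was not tested. Whether replicate numbers pair the arrays is not given by the labels. Deviations of same-numbered arrays correlated from -0.137 to 0.169 between KL null and vehicle and from -0.216 to 0.191 between FGF23 and vehicle, and 1 of 8 arrays was most like its own number in each. Between FGF23 and KL null all 4 were over 0.1 (0.143 to 0.259), and over the 3 pairs of groups 7 of 12 same-numbered and 12 of 36 other pairs were. Over all genes 1598 were called in KL null (828 to 2852 in the alternatives) and 17 after FGF23 (4 to 19). The split in KL null, 713 higher and 885 lower, was 453 and 1369 with arrays centred on their medians.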
